A study of Mus musculus with 20 samples.

Results

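The 10 genes described here are Atf4 and 9 genes of the integrated stress response that it heads: Atf5, Ddit3, Trib3, Ppp1r15a, Asns, Slc3a2, Chac1, Ddit4 and Sesn2. They were taken by name from the deposited expression table, and all 10 were found among its 13225 genes. The list of names was picked with earlier results of these data known. The samples were alveolar macrophages, the resident phagocytes of the lung airspace, collected from mouse lungs by flow cytometry with a gate on CD45, Siglec-F and CD11c. Each of the 4 groups held 5 mice with 1 poly-A RNA library per mouse. The KO smoke and KO air groups were mice lacking miR-155 (strain B6.Cg-Mir155tm1.1Rsky/J), which breathed cigarette smoke or air for 4 weeks. The WT smoke and WT air groups were wild type C57BL/6 mice under the same exposures. The knockout is carried by the whole animal and not by macrophages alone, and the labels give no age for the mice.

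In the integrated stress response, kinases that sense misfolded protein, lack of amino acids or heme, mitochondrial stress or double-stranded RNA phosphorylate the initiation factor eIF2 on its alpha subunit. Most translation then falls while that of the Atf4 mRNA rises, so the amount of ATF4 protein is set to a large part by translation and the Atf4 mRNA need not follow it. ATF4, a bZIP transcription factor, pairs with C/EBP proteins on C/EBP-ATF response elements and switches on genes of amino acid supply, redox balance and, when stress lasts, cell death. Alveolar macrophages meet inhaled smoke directly and take up its particles.

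The core of the C/EBP-ATF response element, TGATGNAA, was searched on both strands of RefSeq promoter windows on GRCm38.p6, which run from 250 bases before to 50 bases after each start. Of the members, 3 of 10 held a match: Trib3, Asns and Chac1. A match stood in 3.97% of all 32851 windows and in 2.92% of the 9379 table genes that have a window. The stretches of these 3 members are shown, with those of 2 genes around them, the aspartate aminotransferase gene Got1 and the cystine transporter gene Slc7a11, which hold a match and are described further on. Each is written 5′ to 3′ on the gene's own strand, and the capitals mark the match or its reverse complement TTNCATCA.
Trib3, chr2:152344039-152344076, minus strand: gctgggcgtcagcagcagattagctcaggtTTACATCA
Asns, chr6:7693210-7693262, minus strand: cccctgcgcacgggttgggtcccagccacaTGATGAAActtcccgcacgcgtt
Chac1, chr2:119351019-119351086, plus strand: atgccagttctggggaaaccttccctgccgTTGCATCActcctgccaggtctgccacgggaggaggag
Slc7a11, chr3:50443623-50443709, minus strand: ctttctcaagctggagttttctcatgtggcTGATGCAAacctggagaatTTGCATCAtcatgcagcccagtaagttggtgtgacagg
Got1, chr19:43524670-43524737, minus strand: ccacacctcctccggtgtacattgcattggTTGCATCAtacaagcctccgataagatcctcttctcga
In Asns the match lay from 23 to 16 bases before the RefSeq start and on the gene's strand. In Trib3 it lay from 15 to 22 bases after the start, and in Chac1 from 193 to 186 bases before it, both on the opposite strand. The GENCODE starts differ: by them the Trib3 match lies before the gene and the Asns match inside it. These windows say nothing of elements farther away, and no match in the other 7 members says only that these letters are not in this window.

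**Figure D1:**
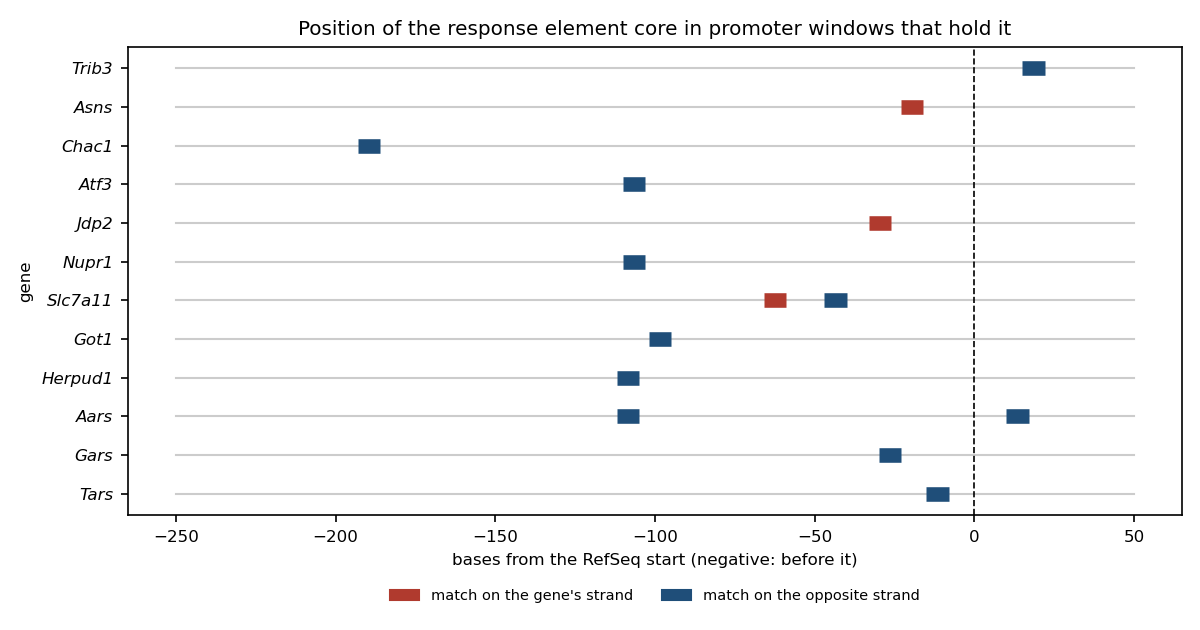
Position of the response element core in the promoter windows that hold it, in bases from the RefSeq start (x axis), for the 3 members and for genes with a match in the lists of bZIP partners, transporters, enzymes and other targets (y axis). Red blocks are matches on the gene's strand and blue blocks matches on the opposite strand. Among the members, the matches of Trib3 and Asns lie nearest to the start, and among the lists Slc7a11 and Aars hold 2 each.

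The table gives log2 CPM (reads of a gene relative to the total of its library), from which whole reads were recovered, 6885680 to 11952088 per library. The alveolar macrophage list stood at a summed 22274 to 28418 CPM in every library, with all 10 of its markers measured. Most of that sum was the chitinase-like gene Chil3, with means of 18681 CPM in KO smoke, 16869 CPM in KO air, 17681 CPM in WT smoke and 17389 CPM in WT air. Siglecf, whose protein is part of the gate, averaged 223 CPM in KO smoke and 491 CPM in KO air (log2 change -1.15, limma adjusted p 1.41e-07), and 223 CPM in WT smoke and 520 CPM in WT air (-1.25, adjusted p 2.25e-08). Markers of other cells were far lower and some moved with smoke. The 7 monocyte and interstitial macrophage markers summed to 9.27 to 29.5 CPM in KO smoke and 8.62 to 15.7 CPM in KO air, and to 19.2 to 165 CPM in WT smoke and 8.50 to 15.4 CPM in WT air, where C1qa had 0 reads in all 5 libraries. The 3 neutrophil markers summed to 20.6 to 50.3 CPM in KO smoke, 7.80 to 15.9 CPM in KO air, 23.6 to 49.9 CPM in WT smoke and 12.3 to 18.0 CPM in WT air. Their part in the results was not tested. The KO air mice IIIb2, IIIb3 and IIIb4 stood apart: 1451 to 1645 of their genes had no read, where the remaining 17 libraries had 259 to 1224 such genes, and the members' calls and those of the named genes that change without them are given with and without them. Mir155hg, the host transcript of miR-155, was near absent in poly-A RNA (mean log2 CPM of -2.68 in KO smoke, -2.26 in KO air, -0.77 in WT smoke and -3.52 in WT air) and does not check the genotype.

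With smoke, Trib3 was called higher in both genotypes, Ddit4 higher in WT, and Asns higher and Atf4 lower in miR-155 KO. The calls of Ddit4, of Asns and, in KO, of Trib3 were lost in some alternatives. For 0 of 10 members was the response called different between the genotypes. Trib3 was the largest change that held in both, 2.87-fold in miR-155 KO and 3.99-fold in WT. Ddit3, Atf5 and Sesn2 were called in neither genotype. Calls were made by limma where the p-value, after Benjamini-Hochberg adjustment over the 13225 genes, was under 0.05. In KO smoke against KO air, 2 of 10 members were called higher and 1 lower, where 7.05% of all genes were called higher and 8.45% lower. In WT smoke against WT air, 2 of 10 members were called higher and 0 lower, where 9.66% of all genes were called higher and 12.8% lower. By an unadjusted p under 0.05, 5 members passed in KO and 3 in WT, where 3703 and 4364 of the 13225 genes passed. The members' median log2 change was 0.18 in miR-155 KO and 0.25 in WT, against medians over all genes of -0.01 and -0.02. Over all genes the split of calls moved with the scaling of the libraries. In KO it was 933 higher and 1118 lower, against 1040 and 888 with quantile normalization and 1182 and 806 with median centring. In WT it was 1278 higher and 1690 lower, against 1536 and 1496 with quantile normalization and 1467 and 1460 with median centring. In bulk RNA, fewer cells of a type and less RNA per cell cannot be told apart.

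**Figure D2:**
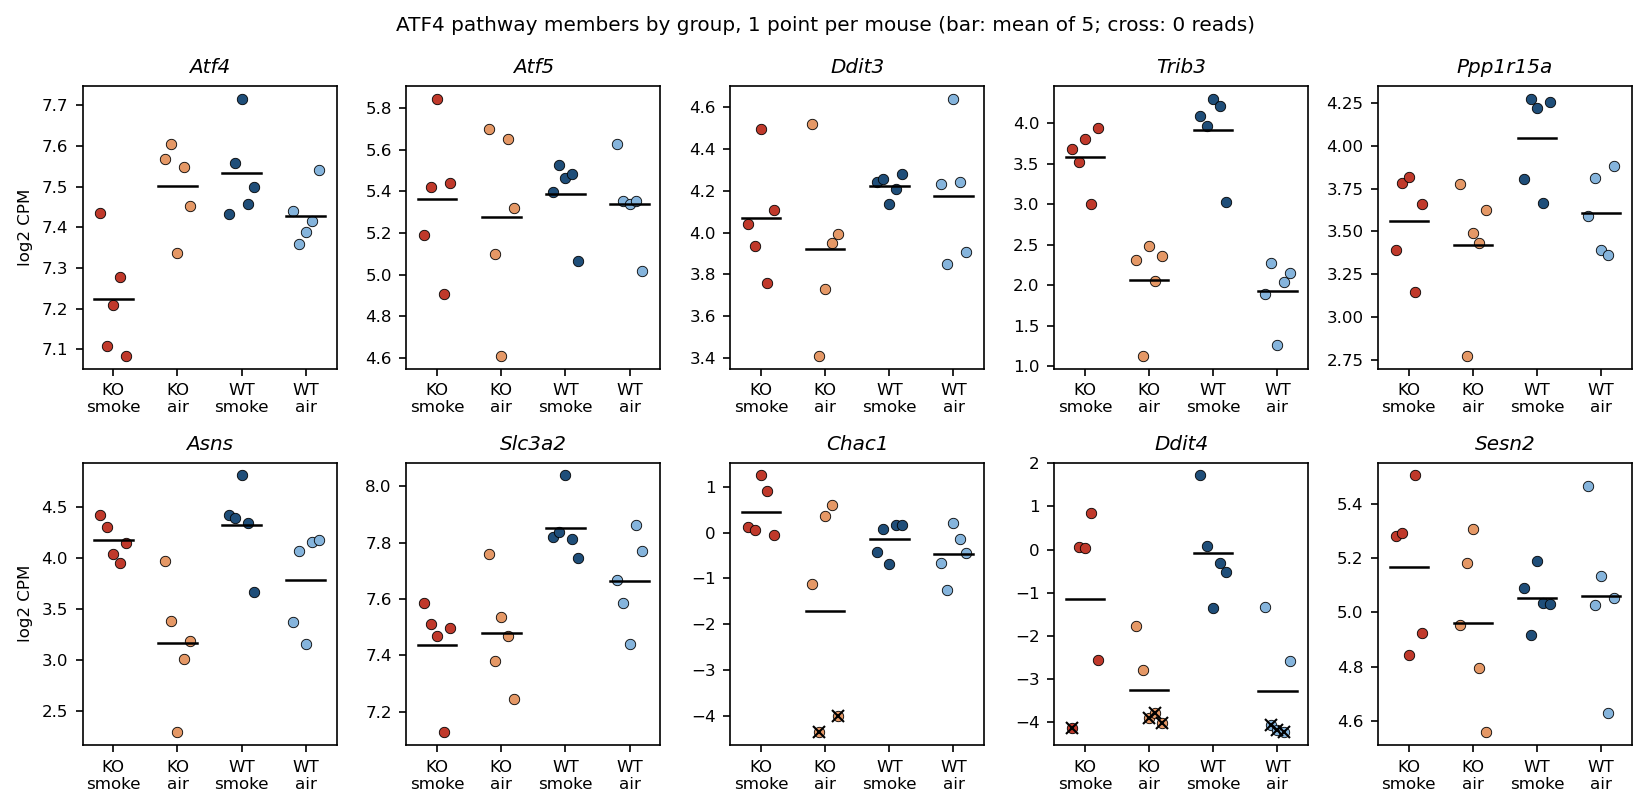
Log2 CPM (y axis, a scale of its own in each panel) of the 10 members in each mouse, by group (x axis), with the mean of 5 mice as a bar and libraries with 0 reads crossed. Trib3 parts smoke from air in both genotypes, and the mean of Atf4 is 7.22 in KO smoke, 7.50 in KO air, 7.53 in WT smoke and 7.43 in WT air.

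Atf4, the transcription factor of the pathway (chr15:80255184-80257541, plus strand), fell with smoke in miR-155 KO. It stood at 173, 138, 148, 155 and 136 CPM in the KO smoke mice IVa2, IVa4, IVa5, IVb2 and IVb4, against 190 (IIIa5), 195 (IIIb1), 162 (IIIb2), 187 (IIIb3) and 175 (IIIb4) CPM in KO air. In 4 of 5 KO smoke mice it was below every KO air mouse, and IVa2 alone lay within their range. Its log2 change with smoke was -0.28 ± 0.07 (limma SE, 5 mice a group; 95% interval -0.43 to -0.13; limma adjusted p 0.00841), a fold of 0.824. The call was kept under all 32 alternatives, with adjusted p up to 0.0478. In WT smoke Atf4 had 173 (IIa1), 189 (IIa5), 210.3 (IIb1), 176 (IIb2) and 181 (IIb3) CPM, against 174 (Ia3), 164 (Ia4), 168 (Ib1), 171 (Ib2) and 186 (Ib4) CPM in WT air. These groups overlapped, and the log2 change of 0.10 ± 0.07 (interval -0.05 to 0.26) had a limma adjusted p of 0.348. The KO response minus the WT response was -0.38 ± 0.10 log2, with an unadjusted p of 0.000972 and a limma adjusted p of 0.225, so the difference was not called.

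Atf5, a second transcription factor whose mRNA is translated under stress, and Ddit3, which encodes the pro-death factor CHOP, were called in no comparison. Atf5 ran from 30.1 to 57.5 CPM in KO smoke, 24.5 to 52.0 in KO air, 33.5 to 46.1 in WT smoke and 32.4 to 49.4 in WT air. Its log2 change with smoke was 0.09 ± 0.17 in miR-155 KO (interval -0.27 to 0.44, limma adjusted p 0.804) and 0.05 ± 0.17 in WT (-0.30 to 0.40, adjusted p 0.886). Both intervals reach past 0.40 log2 on the higher side. Ddit3 ran from 13.5 to 22.6 CPM in KO smoke, 10.6 to 23.0 in KO air, 17.6 to 19.4 in WT smoke and 14.4 to 24.9 in WT air. Its log2 change was 0.15 ± 0.20 in miR-155 KO (interval -0.25 to 0.55, adjusted p 0.682) and 0.05 ± 0.20 in WT (-0.35 to 0.45, adjusted p 0.898). Within WT smoke its 5 values lay close together, with an SD of 0.409 CPM per kb of transcript, against 2.45 in WT air. In the annotation the exons of Atf5 share 82 bases with those of Nup62 and 82 bases with those of Il4i1, and the exons of Ddit3 share 68 bases with those of Mars and 13 bases with those of Gm4189, all on the opposite strand. The annotation also holds a second gene ID named Ddit3 on the same strand, whose span of 2925 bases lies in that of the first and whose exons share 105 bases with it. The table has 1 row of that name, and the length of the ID with more exon sequence was used. Whether reads were counted by strand is not given in the sources used here, so reads in the shared stretches cannot be told apart.

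Trib3 encodes a pseudokinase that is induced by ATF4 and CHOP and in turn restrains ATF4 (chr2:152337422-152344032, minus strand). Its level was 12.8 (IVa2), 11.4 (IVa4), 14.0 (IVa5), 8.03 (IVb2) and 15.3 (IVb4) CPM in KO smoke, against 4.98 (IIIa5), 2.19 (IIIb1), 5.59 (IIIb2), 4.14 (IIIb3) and 5.14 (IIIb4) CPM in KO air. Every KO smoke mouse lay above every KO air mouse, as for 4.54% of all genes. The log2 change was 1.52 ± 0.31 (SE, n = 5 per group; interval 0.88 to 2.16; limma adjusted p 0.000846). Without the KO air mice IIIb2, IIIb3 and IIIb4 it was 1.87, with an adjusted p of 0.00185. In WT smoke Trib3 stood at 17.0 (IIa1), 15.7 (IIa5), 19.7 (IIb1), 18.5 (IIb2) and 8.18 (IIb3) CPM, against 3.71 (Ia3), 4.85 (Ia4), 2.39 (Ib1), 4.10 (Ib2) and 4.44 (Ib4) CPM in WT air. These groups did not overlap either, as for 8.15% of all genes with higher smoke values, and Trib3 was the only one of the 10 members for which this held in WT or in KO. The log2 change in WT was 2.0 ± 0.31 (interval 1.36 to 2.64, limma adjusted p 1.91e-05). The KO response minus the WT response was -0.48 ± 0.44 log2 (interval -1.38 to 0.43, limma adjusted p 0.762), so no difference was called and one of either sign lies within the interval. The WT call held under all 31 alternatives that kept the gene and the KO call under 30 of them, the exception being a block on the letter and number of the mouse codes, added after seeing the data (1.19, limma adjusted p 0.0663). The TTACATCA of its promoter window is the match printed above.

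Ppp1r15a encodes GADD34, the phosphatase subunit that takes the phosphate off eIF2 and so ends the response. Its level was 10.5 (IVa2), 13.7 (IVa4), 14.1 (IVa5), 8.85 (IVb2) and 12.6 (IVb4) CPM in KO smoke, against 13.7 (IIIa5), 6.85 (IIIb1), 11.2 (IIIb2), 10.8 (IIIb3) and 12.3 (IIIb4) CPM in KO air. In WT smoke it was 14.0 (IIa1), 19.3 (IIa5), 18.6 (IIb1), 12.7 (IIb2) and 19.1 (IIb3) CPM, against 12.1 (Ia3), 14.1 (Ia4), 10.5 (Ib1), 10.3 (Ib2) and 14.8 (Ib4) CPM in WT air. In WT, 3 smoke mice were above every air mouse and the other 2 within the air range, while in KO the groups overlapped. The log2 changes were 0.14 ± 0.22 in KO (interval -0.31 to 0.59, limma adjusted p 0.735) and 0.44 ± 0.22 in WT (-0.01 to 0.88, adjusted p 0.164), and neither was called. Its exons share 12 bases with those of Tulp2 on the opposite strand.

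Asns encodes asparagine synthetase (chr6:7675169-7693254, minus strand), a classic ATF4 target of amino acid supply. Its level was 21.4 (IVa2), 19.8 (IVa4), 16.4 (IVa5), 15.5 (IVb2) and 17.7 (IVb4) CPM in KO smoke, against 15.7 (IIIa5), 10.4 (IIIb1), 4.92 (IIIb2), 8.06 (IIIb3) and 9.10 (IIIb4) CPM in KO air. The groups overlapped only through IVb2 and IIIa5, and the 3 lowest of the 10 KO values were those of the KO air mice with many genes at 0 reads. The log2 change was 1.0 ± 0.26 (SE, n = 5 per group; interval 0.47 to 1.54; limma adjusted p 0.00780), and without those 3 mice it was 0.49 with an adjusted p of 0.334. In WT smoke Asns stood at 21.4 (IIa1), 21.0 (IIa5), 27.9 (IIb1), 20.2 (IIb2) and 12.7 (IIb3) CPM, against 10.3 (Ia3), 16.7 (Ia4), 8.94 (Ib1), 17.9 (Ib2) and 18.0 (Ib4) CPM in WT air. Here 4 of 5 smoke mice were above every air mouse, and IIb3 was within the air range. The log2 change in WT was 0.54 ± 0.26 (interval 0.003 to 1.07, limma adjusted p 0.149). The KO response minus the WT response was 0.46 ± 0.37 log2 (adjusted p 0.718), and -0.04 without the 3 mice.

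Slc3a2 encodes the heavy chain CD98 of the amino acid exchangers, and was not called with smoke in either genotype. Its level was 192 (IVa2), 183 (IVa4), 177 (IVa5), 139.9 (IVb2) and 181 (IVb4) CPM in KO smoke, against 217 (IIIa5), 167 (IIIb1), 185 (IIIb2), 177 (IIIb3) and 152 (IIIb4) CPM in KO air. In WT smoke it was 226 (IIa1), 229 (IIa5), 263 (IIb1), 225 (IIb2) and 215 (IIb3) CPM, against 203 (Ia3), 192 (Ia4), 174 (Ib1), 233 (Ib2) and 218 (Ib4) CPM in WT air. Both pairs of groups overlapped, and the log2 changes were -0.04 ± 0.09 in KO (interval -0.23 to 0.15, limma adjusted p 0.833) and 0.19 ± 0.09 in WT (-0.003 to 0.38, adjusted p 0.159).

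Chac1 and Ddit4 were scarce, with 0 to 37 reads per library, so their values are given as reads. Chac1 encodes an enzyme that degrades glutathione. It had 9, 9, 17, 20 and 8 reads in the KO smoke mice IVa2, IVa4, IVa5, IVb2 and IVb4, against 5, 0, 9, 10 and 0 reads in the KO air mice IIIa5, IIIb1, IIIb2, IIIb3 and IIIb4. Scaled to the depth of the libraries, the groups' totals of 63 and 24 reads stood in a ratio of 2.61 (exact 95% interval 1.61 to 4.37, counting error only). The log2 change of 2.16 ± 0.81 had a limma adjusted p of 0.0704 and was not called. It was called without IIIb2 (2.68, adjusted p 0.0246), without IIIb3 (2.74, adjusted p 0.0199) and without IIIb2, IIIb3 and IIIb4 together (3.20, adjusted p 0.0141). IIIb2 and IIIb3 had the most reads of the KO air mice, and without all 3 mice KO air kept 5 and 0 reads. The change depends on the offset given to the 2 KO air libraries with 0 reads, and ran from 0.65 to 3.20 over the 30 alternatives that kept the gene. In WT, Chac1 had 8, 9, 5, 10 and 10 reads with smoke (mice IIa1, IIa5, IIb1, IIb2 and IIb3), against 5, 3, 10, 8 and 6 with air (Ia3, Ia4, Ib1, Ib2 and Ib4), a ratio of 1.22 (interval 0.749 to 1.99). The WT groups overlapped, and the log2 change was 0.32 ± 0.81 (adjusted p 0.838).

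Ddit4 encodes REDD1, an inhibitor of the growth kinase mTORC1 that is also induced by hypoxia, p53 and glucocorticoids. It had 0 (IVa2), 9 (IVa4), 7 (IVa5), 19 (IVb2) and 1 (IVb4) reads in KO smoke, against 3 (IIIa5), 1 (IIIb1), 0, 0 and 0 (IIIb2, IIIb3 and IIIb4) in KO air. The totals of 36 and 4 reads gave a depth-scaled ratio of 8.94 (exact 95% interval 3.21 to 34.6), and the log2 change of 2.10 ± 0.98 had a limma adjusted p of 0.159. In WT it had 37 (IIa1), 9 (IIa5), 3 (IIb1), 7 (IIb2) and 6 (IIb3) reads with smoke, against 3 (Ia3), 0, 0 and 0 (Ia4, Ib1 and Ib2) and 1 (Ib4) with air. The totals of 62 and 4 reads gave a ratio of 14.4 (interval 5.33 to 54.4). The log2 change was 3.19 ± 0.98 (limma adjusted p 0.0179), and depends on the offset given to libraries with 0 reads: on the log2(CPM + 1) scale it was 0.89, with an adjusted p of 0.0260. Mouse IIa1 alone held 59.7% of the WT smoke reads, and without it the change was 2.75 with an adjusted p of 0.0671. The KO response minus the WT response was -1.10 ± 1.39 log2 (interval -3.95 to 1.75, limma adjusted p 0.844), so no difference was called. Counting intervals leave out the spread between mice, which here was large.

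**Figure D3:**
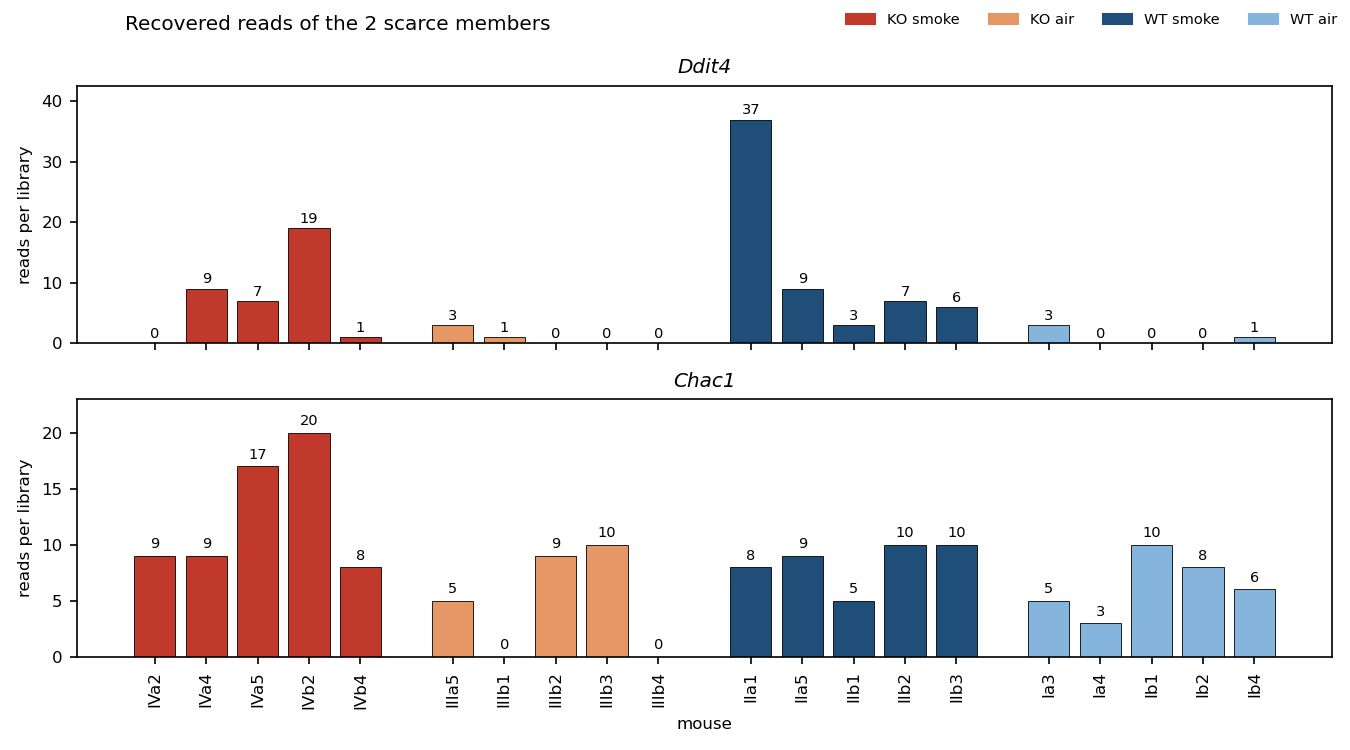
Recovered reads per library (bars, y axis) of Ddit4 and Chac1 in each mouse (x axis), colored by group. Ddit4 has 37 reads in the WT smoke mouse IIa1 and at most 3 in any air mouse, and Chac1 has 20 or fewer in every mouse.

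Sesn2 encodes sestrin 2, a sensor of leucine that restrains mTORC1. It ran from 28.7 to 45.4 CPM in KO smoke, 23.6 to 39.5 in KO air, 30.3 to 36.5 in WT smoke and 24.8 to 44.1 in WT air, so all 4 groups overlapped. The log2 change was 0.21 ± 0.15 in KO (interval -0.11 to 0.52, limma adjusted p 0.403) and -0.01 ± 0.15 in WT (-0.32 to 0.30, adjusted p 0.979). In the annotation its span covers Gm12981, with which its exons share 0 bases.

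Between genotypes, Atf4 and Slc3a2 were lower in KO smoke than in WT smoke. These were 2 of 10 members, where 1.58% of all genes were called in either direction (118 higher and 91 lower, or 192 and 73 with median centring). Atf4 changed by -0.31 ± 0.07 log2 (SE, n = 5 per group; interval -0.46 to -0.16; limma adjusted p 0.0234), from the levels given above, and only IVa2 among the KO smoke mice reached the WT smoke range. The call was lost with a variance prior without trend and with the block on the mouse code, and without any 1 of the mice IIb1, IVa4, IVa5 or IVb4, with adjusted p up to 0.201. Slc3a2 changed by -0.41 ± 0.09 log2 (interval -0.60 to -0.22, limma adjusted p 0.0142). All 5 KO smoke mice, at up to 192 CPM, were below all 5 WT smoke mice, at 215 CPM or more. The share of all genes that part in this way between these 2 groups was not counted. The Slc3a2 call was lost without trend, with the block on the mouse code, and without IIb1 or IVb2, with adjusted p up to 0.174. In each of these alternatives both changes kept their sign. Ppp1r15a was -0.49 ± 0.22 (adjusted p 0.317), Trib3 -0.33 ± 0.31 (adjusted p 0.732) and the other 6 were not called. The members' median log2 change in KO smoke against WT smoke was -0.23, against -0.02 over all genes. Of the 7 monocyte and interstitial macrophage markers, 0 were called between KO smoke and WT smoke, with a median log2 change of -1.46 (range -3.96 to -0.56). Their summed ranges, given above, overlap. The highest sum, 165 CPM, was that of the WT smoke mouse IIb1, where the remaining WT smoke mice had 19.2 to 68.1 CPM. IIb1 also had the highest Atf4 and Slc3a2 of the WT smoke mice, 210.3 and 263 CPM, and both calls were lost without it. The part of these markers in the 2 calls was not tested. The KO smoke and WT smoke samples also enter the smoke comparisons, so these values share samples with those.

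In air, 0 of 10 members were called between KO and WT, where 0.416% of all genes were called by limma. By an unadjusted p under 0.05, 1 member passed, Asns, where 1537 of the 13225 genes passed. The log2 change of Asns was -0.61 ± 0.26 (limma adjusted p 0.361), and -0.11 without the 3 KO air mice with many genes at 0 reads. Slc3a2 changed by -0.19 ± 0.09 (adjusted p 0.438) and Atf4 by 0.07 ± 0.07 (adjusted p 0.748). For the KO response minus the WT response, 0 of 10 members were called and 0% of all genes, with 1302 of 13225 genes and 1 member, Atf4, at an unadjusted p under 0.05. Quantile normalization called 3 genes and median centring 2, and none of the alternatives called a member in either comparison.

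**Figure D4:**
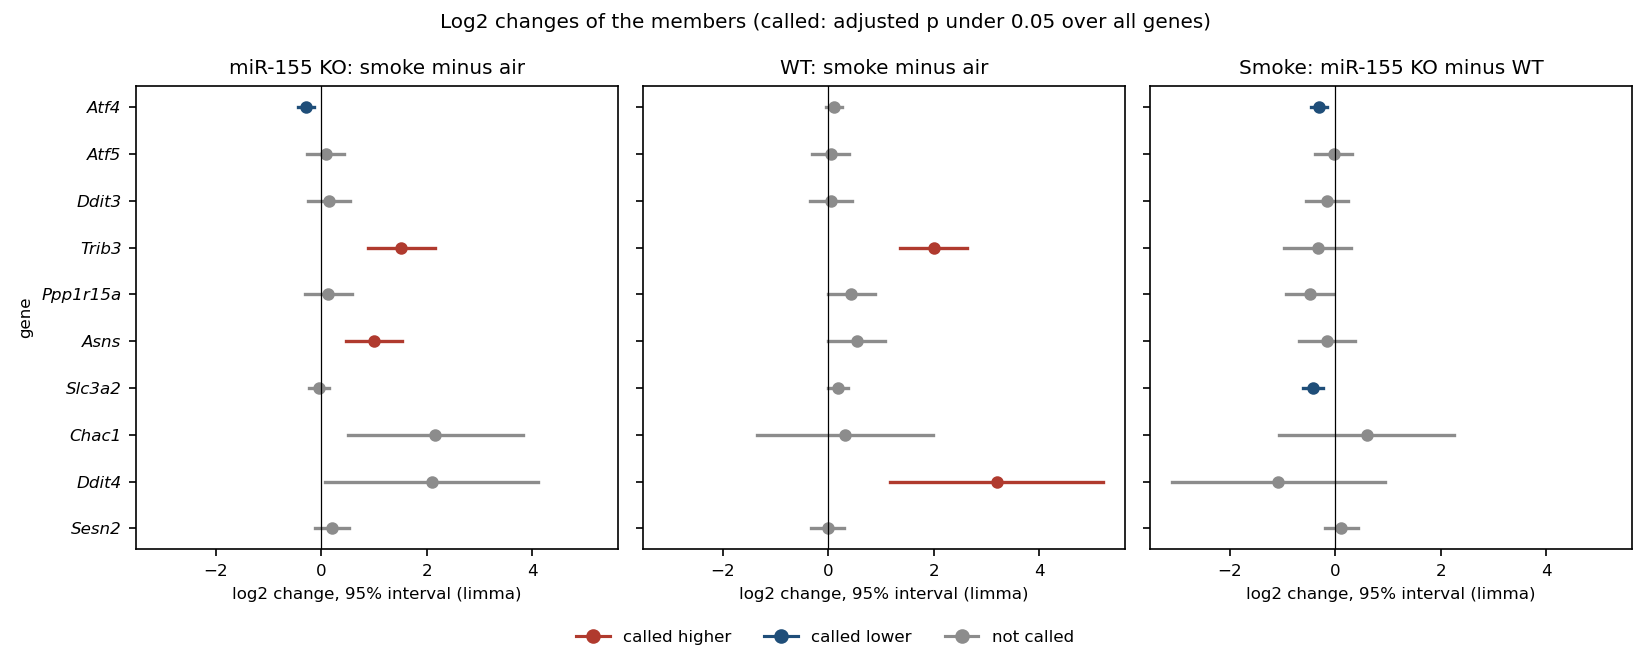
Log2 change (x axis, points) of the 10 members (y axis) with its 95% interval (lines) in miR-155 KO smoke against air, WT smoke against air, and KO against WT in smoke. Red points were called higher, blue lower and grey not called; Ddit4 and Chac1 have the widest intervals, and Atf4 is the only one of the 10 called lower in miR-155 KO with smoke.

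Per kilobase of annotated exon (GENCODE M21 on GRCm38), Atf4 and Slc3a2 were the most abundant members. In KO smoke they averaged 63.6 ± 6.4 and 49.4 ± 5.7 CPM per kb (SD, n = 5), in KO air 77.0 and 50.9, in WT smoke 78.8 ± 6.4 and 65.6 ± 5.2, and in WT air 73.1 ± 3.6 and 57.8 ± 6.5. Atf5 followed at 20.2 to 21.1 CPM per kb over the 4 group means. Ddit3, at 9.14 to 10.9, and Sesn2, at 9.11 to 10.5, came next, and in each group their means differed by less than the larger of their SDs, except in WT smoke, where Ddit3 stood at 10.9 ± 0.41 and Sesn2 at 9.57 ± 0.66. Asns and Ppp1r15a were at 5.25 ± 1.6 and 4.2 ± 0.69 CPM per kb in WT air, again closer than the larger SD. Trib3 was at 5.80 ± 1.32 in KO smoke and 2.07 ± 0.63 in KO air, and at 7.44 ± 2.13 in WT smoke and 1.83 ± 0.44 in WT air. In WT smoke it therefore stood beside Asns, at 7.55 ± 1.98. Chac1 and Ddit4 were the least abundant, below 1 CPM per kb in every group.

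Mouse to mouse, few pairs of members correlated above 0.5. Over the 20 libraries, with the mean of each group taken off, the 45 pairs of members had a median Pearson r of 0.13, and 16 were below 0. The 3 pairs over 0.5 were Ddit3 with Atf5 (0.61), Asns with Slc3a2 (0.55) and Trib3 with Slc3a2 (0.53), and the lowest was Atf5 with Sesn2 (-0.45). These values share each library's depth and are a description. In pairs with the scarce Ddit4 or Chac1, counting error enters r, and how much was not tested. No typical r of other gene pairs is given beside them. Among the 8907 genes whose mean log2 CPM reached 3, the one nearest to Atf4 by this measure was Metap2 (r 0.80), followed by S100a13 (0.76) and Nploc4 (0.74). The 3 nearest were Mrpl38 (0.79), Stip1 (0.75) and Uba6 (0.74) for Ddit3, Pdzd11 (0.79), Zpr1 (0.78) and Acot13 (0.77) for Asns, and Tor3a (0.79), Traf3 (0.78) and Cdkn2aip (0.77) for Slc3a2. They were Dcun1d5 (0.81), Mta2 (0.79) and Notch1 (0.78) for Sesn2, Actr5 (0.82), Ctif (0.79) and Sirt2 (0.77) for Atf5, and Dusp1 (0.76), Zfp90 (0.76) and Ugcg (0.76) for Ppp1r15a. None of these is a member, and Trib3, Chac1 and Ddit4 were below that level. These r values are the highest among 8907 genes over 20 libraries, and how high an r chance gives there was not tested.

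Around the members, enzymes of amino acid and one-carbon synthesis reported as ATF4 targets rose with smoke more often than they fell. Of the 8 measured, 4 rose and 0 fell in KO, with a median log2 change of 0.32, and 5 rose and 0 fell in WT, with a median of 0.46. Over all genes, 7.05% were called higher and 8.45% lower in KO, and 9.66% and 12.8% in WT. Psat1, of the serine pathway, changed by 0.54 ± 0.12 in KO (limma adjusted p 0.00221) and 1.31 ± 0.12 in WT (3.69e-09). The difference of its responses was -0.77 ± 0.17, with an adjusted p of 0.117. Got1, with the match printed above, changed by 0.76 ± 0.17 and 1.05 ± 0.17 (adjusted p 0.00192 and 2.76e-05). Psph rose by 0.97 and Phgdh by 0.33 in KO, and both calls were lost without the 3 KO air mice IIIb2, IIIb3 and IIIb4 (adjusted p 0.280 and 0.381). Shmt2 rose by 0.44 and Aldh18a1 by 0.41 in WT. Of the 7 amino acid transporters, none rose: Slc38a2 fell by 0.39 in KO and 0.53 in WT. Slc7a11, with 2 matches to the element in the stretch printed above, fell by 0.50 in WT, a call lost in 11 of 32 alternatives (adjusted p up to 0.0998). The list medians were -0.29 in KO and -0.26 in WT. Between genotypes, 1 of these 7 transporters was called, Slc7a11, lower in KO air than in WT air (-0.81 ± 0.17, limma adjusted p 0.0256). In air 0.416% of all genes were called, and the alternatives were not examined for this call.

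**Figure D5:**
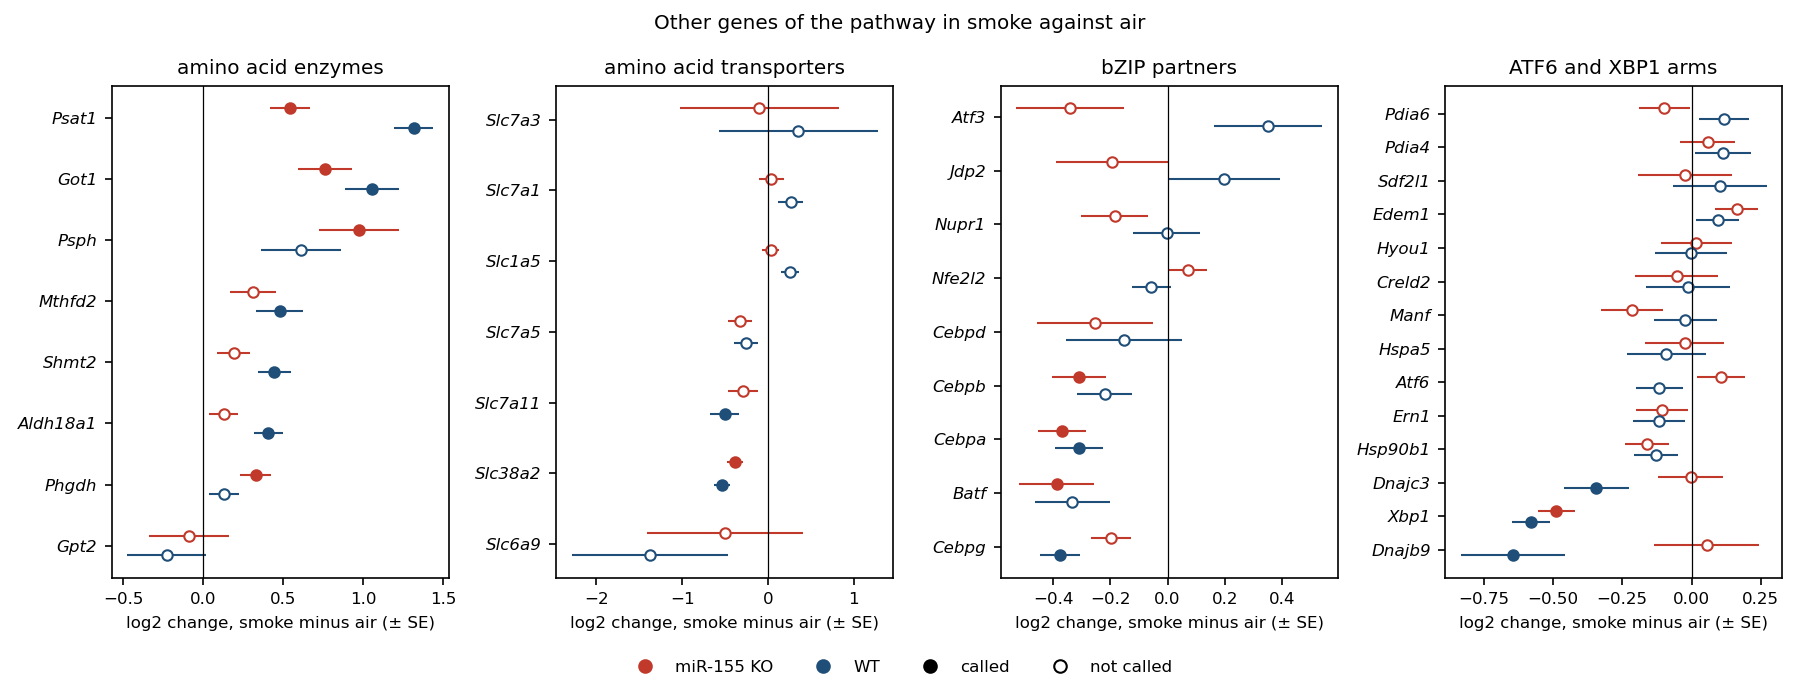
Log2 change with smoke (x axis, points, with the SE as a line) of genes of 4 lists around the members (y axis) in miR-155 KO (red) and WT (blue), filled where called. Psat1 and Got1 are called higher in both genotypes, Slc38a2, Cebpa and Xbp1 lower in both.

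Of 18 other reported targets of ATF4 or CHOP, 2 rose and 1 fell in KO, and 6 rose and 2 fell in WT, with medians of 0.13 and 0.21. The shares over all genes, for this and the next list, were 7.05% higher and 8.45% lower in KO, and 9.66% and 12.8% in WT. Gdf15, a secreted stress hormone, changed by 0.63 ± 0.20 in KO (limma adjusted p 0.0348, lost in 11 of 32 alternatives, without the 3 KO air mice 0.0957) and by 1.25 ± 0.20 in WT (3.80e-05). The alanyl-tRNA synthetase gene Aars rose by 0.31 in WT. Herpud1, of endoplasmic reticulum protein degradation, fell by 0.55 in WT, and Hmox1, of heme breakdown, fell by 1.05 in KO and 1.32 in WT. Between genotypes, 1 of the 18 was called, Herpud1, higher in KO smoke than in WT smoke (0.49 ± 0.13, limma adjusted p 0.0477). In smoke 1.58% of all genes were called, and the alternatives were not examined for this call. Vegfa, a scarce gene, rose in KO by 2.69 ± 0.89 (adjusted p 0.0387), a call lost in 14 of 30 alternatives (without the 3 KO air mice 3.03, adjusted p 0.114), and in WT by 3.32 ± 0.89 (adjusted p 0.00693). The ATF6 and XBP1 arms of the unfolded protein response had 14 measured genes, of which 0 rose and 1 fell in KO, and 0 rose and 3 fell in WT. Xbp1 fell by 0.49 in KO and 0.58 in WT, and Dnajb9 by 0.64 and Dnajc3 by 0.34 in WT, where Dnajc3 was lost in 9 of 32 alternatives and Dnajb9 in 3.

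Upstream of Atf4, of 10 measured genes for the eIF2 kinases and their activators, 0 rose and 1 fell with smoke in each genotype, which is near the share over all genes given above. The fall was that of Trib1, a pseudokinase related to Trib3 and not itself an eIF2 kinase (-0.49 ± 0.17 in KO, limma adjusted p 0.0438, lost in 18 of 32 alternatives and without the 3 KO air mice at 0.107, and -0.70 ± 0.17 in WT, adjusted p 0.00213). Between genotypes, 1 of the 10 was called, Gcn1l1, the activator of the kinase GCN2, and it was singled out after its values were seen. Over all genes 1.58% were called in smoke and 0.416% in air. Gcn1l1 was higher in KO smoke than in WT smoke by 0.71 ± 0.08 log2 (limma adjusted p 4.08e-06) and higher in KO air than in WT air by 0.81 ± 0.08 (adjusted p 3.36e-07). The difference of its smoke responses was -0.11 ± 0.12 (adjusted p 0.810). KO and WT mice differ in strain name, and whether this shift comes from the loss of miR-155 was not tested. Of 12 subunits of eIF2, eIF2B and the eIF2 phosphatase, 0 were called in KO and 1 in WT, Ppp1cb, which fell by 0.44. Of the 9 bZIP partners and competitors of ATF4 and CHOP, 0 rose in either genotype and 3 fell in KO and 2 in WT. With smoke, 8.45% of all genes were called lower in KO and 12.8% in WT, and 7.05% and 9.66% higher. Cebpa fell by 0.37 in KO and 0.31 in WT, Cebpg by 0.38 in WT, and Cebpb by 0.31 and Batf by 0.39 in KO. Without the 3 KO air mice, the calls of Cebpa, Cebpb and Batf in KO were lost, with adjusted p of 0.103, 0.190 and 0.154. Around Ddit4 and the sestrins, 0 of 13 genes of mTORC1 control were called in either genotype.

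Genes that respond to other inputs known for Ddit4 or Sesn2 moved in different ways, and the inputs themselves were not measured. For all lists here, the shares over all genes were 7.05% called higher and 8.45% lower in KO, and 9.66% and 12.8% in WT. Of 9 measured p53-responsive genes, 6 rose and 0 fell in KO, and 4 rose and 0 fell in WT, with medians of 0.59 and 0.49. Cdkn1a, the cell cycle inhibitor p21, changed by 0.85 ± 0.11 and 0.81 ± 0.11, and Zmat3 by 1.18 ± 0.12 and 0.85 ± 0.12. Of 8 hypoxia-responsive genes, 1 rose and 2 fell in each genotype: Slc2a1 rose by 0.87 in KO and 1.14 in WT, and Pfkfb3 fell by 0.69 and 0.71. The other falling gene was Pfkfb4, with -0.32 in KO and -0.36 in WT, and without the 3 KO air mice the KO calls of Pfkfb3 and Pfkfb4 were lost (adjusted p 0.0766 and 0.0679). Of 7 glucocorticoid-responsive genes, 0 were called in KO and 3 fell in WT, with Klf9 at -1.29 ± 0.28 (limma adjusted p 0.000909). Of 14 immediate early and heat shock genes, which respond to handling of cells, 0 rose and 5 fell in KO and 0 rose and 6 fell in WT, with Hspa1b at -2.51 ± 0.58 in WT and Fos at -0.73 in KO. Without the 3 KO air mice the KO calls of Fos (-0.57, adjusted p 0.206) and Btg2 (-0.65, adjusted p 0.0503) were lost. Their part in the members' values was not tested.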

How the data were processed

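The submitters' processing notes name STAR 2.6.0c (the aligner), limma and the build GRCm38.p6. For the counting tool, its annotation and its use of strand, nothing is given in the sources used here. The authors deposited log2 CPM in the voom form, with offsets of 0.5 on a gene's count and 1 on the library's. Undoing that form gave whole reads, within 0.001, for 100% of values. Totals were 6885680 to 11952088 reads per library, and 3 reads, the limit a count of 0 allows, equal 0.251 to 0.436 CPM. Intervals on counts cover counting error only.

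Groups came from the labels. limma 3.58.1 in R 4.3.3 took the whole deposited table (13225 genes), estimated 1 mean for each group, used its empirical Bayes variance prior with a trend on the mean, and was tested on simulated data. It gave 5 contrasts with 2-sided p-values, adjusted per contrast by Benjamini-Hochberg. Errors are limma standard errors or SDs over mice. The main fit took the deposited log2 values, and no count model was run on the recovered reads beyond the alternative with voom weights. Alternatives were other variance priors, quantile normalization, median centring, minimum mean log2 CPM of 1 or 3, log2 of CPM plus 1, voom weights on recovered reads, only the compared groups, the letter (a or b) in each mouse code as covariate, libraries left out and, chosen after seeing the data, a block on the letter and number of the code.

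The members and the lists (eIF2 kinases, eIF2 subunits, bZIP partners, transporters, enzymes, other targets, ATF6 and XBP1 arms, mTORC1, glucocorticoid, hypoxia, p53 and immediate early genes, and cell type markers) were chosen with earlier results of these data known. All members are named, and from each list up to 4 called genes with the smallest p in each smoke comparison. For each member whose mean log2 CPM reached 3, the 3 genes with the highest r are listed. Loci and lengths are from GENCODE M21 and promoters from RefSeq on GRCm38.p6. No transcript of another gene symbol matched a member over at least 200 bases at 95% identity. Python 3.11.15 with pandas 2.3.3, numpy 2.4.6 and matplotlib 3.10.9 did the rest. The result of 1 listed marker is not reported here.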

Additional observations from a re-analysis of the deposited data

Results flagged for a closer look

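Of 40 sets of 5 mice (10 members in 4 groups), 3 held a mouse far from the other 4 by Dixon's ratio of gap to range, with a limit of 0.71. Chance alone flags about 1 in 20 such sets. Trib3 in the WT smoke mouse IIb3 was at 3.03 log2 CPM, the lowest of 5, with a ratio of 0.737. Atf5 in the same mouse was at 5.07 log2 CPM, the lowest of 5, with a ratio of 0.717. Slc3a2 in the KO smoke mouse IVb2 was at 7.13 log2 CPM, the lowest of 5, with a ratio of 0.740. Without IVb2, the call of Slc3a2 between KO smoke and WT smoke was lost.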

How the results depend on the processing

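In WT smoke against WT air, 2 members were called higher, 1 with a minimum mean log2 CPM of 1 and 0 with 3, where Ddit4 and Chac1, and then also Trib3, no longer entered, and 1 to 2 with each mouse left out (1 without IIa1). In KO smoke against KO air, 2 were called higher, 1 with the minimum of 3, where Trib3 did not enter, and 2 to 3 with each mouse left out (3 without IIIb2 or IIIb3, where Chac1 joined). Without IIIb2, IIIb3 and IIIb4 the count was again 2, with Chac1 (3.20, adjusted p 0.0141) in place of Asns (0.49, adjusted p 0.334). In KO smoke against WT smoke, 2 were called lower, 0 with a variance prior without trend, and 0 to 2 with each mouse left out (0 without IIb1, 1 without IVa4, IVa5, IVb2 or IVb4); the cause was not tested. Apart from the block below, the other counts of called members were the same number in every alternative run. Signs turned only for log2 changes that were not called. With quantile normalization and median centring, Sesn2 in WT was 0.0144 and 0.0248, and Slc3a2 in KO 0.0245 and 0.0149; with median centring, Atf5 in KO smoke against WT smoke was 0.0067. Without the KO air mice IIIb2, IIIb3 and IIIb4, Atf5 was -0.0375 in KO with smoke and 0.0612 in KO air against WT air, where Trib3 was -0.20 and Sesn2 0.0056, and the difference of responses was -0.0449 for Asns and -0.0871 for Atf5. With the mouse code letter, Atf5 was -0.0285 in KO with smoke and -0.078 for the difference of responses, which was -0.0176 with voom weights. On the log2(CPM + 1) scale, Ddit4 in KO air against WT air was -0.0244. With each mouse left out, the WT change ran from -0.0302 to 0.17 for Ddit3, -0.12 to 0.0905 for Sesn2 and -0.0305 to 0.13 for Atf5. The KO change ran from -0.0981 to 0.0373 for Slc3a2, -0.0812 to 0.20 for Atf5 and -0.0219 to 0.24 for Ppp1r15a. KO air against WT air ran from -0.0214 to 0.38 for Trib3, -0.35 to 0.51 for Ddit4 and -0.17 to 0.10 for Atf5, and KO smoke against WT smoke from -0.15 to 0.0872 for Atf5. The difference of responses ran from -0.0317 to 0.25 for Ddit3 and -0.13 to 0.15 for Atf5. The groups share some letter and number pairs of the mouse codes (b2 and others), and the labels do not say that these pair mice. A fit with the letter and number as a replicate block was added after seeing the data. Of 17 pairs of libraries that share them across groups, 0 had deviations that correlated above 0.1 (median r -0.0102), and 2 of 17 libraries with such a partner were closest to one. With this block, 1 member was called higher in WT with smoke (Trib3), 0 higher and 1 lower (Atf4) in KO with smoke, and 0 lower in KO smoke against WT smoke. The block turned the sign of uncalled changes in WT of Ddit3 (-0.16), Chac1 (-0.80) and Sesn2 (0.13), in KO air against WT air of Sesn2 (0.0861), and in KO smoke against WT smoke of Ddit4 (0.14) and Atf5 (0.0411). Depth limits Ddit4 and Chac1, whose values rest on 0 to 37 reads per library.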

Other observations

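Of the 9379 genes of the table with a promoter window, 274 held the response element core, and their shares of calls with smoke are given here without a test. In miR-155 KO, 22 of the 274 genes with a match were called higher (8.03%) and 22 lower (8.03%), against 697 (7.66%) and 858 (9.42%) of the 9105 genes without. In WT, 31 were called higher (11.3%) and 37 lower (13.5%), against 958 (10.5%) and 1281 (14.1%). Among the lists, 3 of 8 bZIP partners with a window held a match (Atf3, Jdp2 and Nupr1), as did 4 of 11 other targets (Herpud1, Aars, Gars and Tars), 1 of 8 enzymes (Got1), 1 of 4 transporters (Slc7a11) and 1 of 9 genes of eIF2, eIF2B and the eIF2 phosphatase. In the lists of eIF2 kinases and of the ATF6 and XBP1 arms, 0 of 6 and 0 of 11 did. Got1 and Slc7a11, each with a match, had opposite signs in WT with smoke, 1.05 and -0.50 log2.

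The remaining marker lists had few measured genes. With smoke, 7.05% of all genes were called higher and 8.45% lower in KO, and 9.66% and 12.8% in WT. Of the 3 dendritic cell markers, 1 rose in KO (Flt3, log2 change 2.98 ± 0.87, a call lost in 7 of 30 alternatives, without the 3 KO air mice 1.89 with an adjusted p of 0.325) and 1 in WT (Ccr7, 3.29 ± 1.03, lost in 3 of 30). Of the 3 epithelial markers, Epcam fell by 1.64 in KO and 2.13 in WT. The 1 endothelial marker, Kdr, rose in WT by 3.60 ± 0.93, with 38 reads over the WT smoke libraries and 0 over WT air. Of the listed eosinophil, T cell and B cell markers, 0 were in the table. Of the 10 alveolar macrophage markers, 3 rose and 4 fell in KO, and 2 rose and 4 fell in WT, with Car4 at 1.09 and 1.52 and Siglecf at -1.15 and -1.25. Of the 7 monocyte and interstitial macrophage markers, 1 rose and 1 fell in KO, with a median log2 change of 1.62. In WT, 4 rose and 0 fell, with a median of 4.42. The gene that fell in KO was Ccr2, by 1.16, a call lost in 4 of 31 alternatives (without the 3 KO air mice -1.12, adjusted p 0.112). Among those that rose in WT was C1qa, with 835 reads over the WT smoke libraries and 0 over WT air (limma adjusted p 1.24e-06). Of the 3 neutrophil markers, 2 rose in each genotype, with Cxcr2 at 1.79 in KO and 0.99 in WT.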
